A study of Bos taurus with 6 samples.

Results

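The insulin and IGF genes of the bovine blastocyst were followed here as 10 transcripts, taken from the table by gene symbol. They are the receptors IGF1R, INSR and IGF2R, the receptor substrates IRS1 and IRS2, the ligand IGF2, the binding proteins IGFBP2, IGFBP3 and IGFBP7, and the mRNA-binding protein IGF2BP1. All 10 symbols had 1 row each among the 36075 genes of the deposited table. RNA was measured in 6 libraries, 3 from control blastocysts and 3 from MT-treated blastocysts. In the MT-treated group the oocytes were matured in vitro for 22 h with melatonin (MT) at 1e-07 mol/L, and in the control group they were matured without MT. Oocytes of both groups came from slaughterhouse ovaries and were fertilized and cultured to the blastocyst stage in vitro. Each library was a pool of 3 blastocysts, so a value averages embryos, and the 3 libraries of a group came from separate in vitro production runs. Values are in TPM, a unit that corrects read numbers for gene length and for the size of the library, so levels can be set side by side between genes. TPM keeps no read counts. The paper lists sequencing depth for each replicate in its supplement, which was not used here.

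Insulin and the insulin-like growth factors bind receptor tyrosine kinases at the cell surface. The activated receptor phosphorylates adaptor proteins of the IRS family, which recruit PI3-kinase and activate AKT, a branch that favours growth, glucose uptake and survival and keeps FOXO factors out of the nucleus. IGF2R has no kinase and carries IGF2 to the lysosome, and the binding proteins hold IGFs outside the cell until proteases release them. Early cattle embryos express receptors of this family before implantation, and insulin or IGF is a common additive to embryo culture media.

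A feature of the whole table bears on every comparison. Between 8854 and 8953 genes were above 0 TPM in the control libraries, against 14372 to 14408 in the MT-treated libraries. A gene was tested, with limma on log2(TPM + 1), if 3 or more libraries reached 1 TPM, and of the 11953 such genes 95.7% were called at a Benjamini-Hochberg adjusted p under 0.05. Of the tested genes, 61.6% were called higher in MT-treated blastocysts and 34.1% lower, the values of the groups did not overlap for 96.1%, and 33.8% were listed at 0 in all control libraries. A 0 can be a transcript that was absent or one that was not captured or counted, and genes that every cell uses were among those at 0. Of 30 subunits of RNA polymerases I, II and III, 5 were at 0 in all control libraries, and POLR3K, an example picked after its values were seen, was at 0 in control and had 292.78, 297.15 and 294.33 TPM in MT-treated libraries. Where every control library was at 0, a gene passed the filter through the MT-treated group alone and had to differ, so only its values are given, with no fold change or p. Trophectoderm markers summed to 11569 to 11910 TPM in control and 10913 to 11270 TPM in MT-treated libraries, most of it KRT8. Of the 10 tested, KRT8 was lower and 9 were higher, and CDX2 and ELF5 were at 0 in all control libraries. Inner cell mass markers summed to 515 to 523 TPM and 457 to 459 TPM, with 4 of the 9 tested higher, 3 (SALL4, KLF17 and DPPA3) lower and 2 not called. NANOG and LIN28A were at 0 in all control libraries and FGF4 in every library. Hypoblast markers summed to 0.20 to 0.44 TPM in control and 59.9 to 63.6 TPM in MT-treated libraries, with GATA4 at 0 in every library. Of the markers, 7 of the 12 cumulus and granulosa markers found by symbol, FOXL2 among them, and 8 of the 10 oocyte markers were at 0 in every library. The cumulus and granulosa list still summed to 96.1 to 97.7 TPM in control and 96.9 to 99.5 TPM in MT-treated libraries, from CYP11A1 and FSHR, which were above 0 throughout. In pooled embryos, fewer cells of a type and less RNA per cell cannot be told apart.

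Both kinase receptors and IRS2 had no TPM above 0 in control blastocysts and were measured in every MT-treated library. IGFBP7 had the same pattern, IGF2R and IGFBP2 were 1.38 and 1.25 times as high in MT-treated blastocysts but lower after quantile normalization, and IGF2BP1 was 2.55 times as high in control blastocysts. Of the 10 genes, 7 passed the filter and were tested. Of these, 6 (85.7%) were called higher and 1 lower, where 61.6% and 34.1% of all tested genes were, and the groups were apart for all 7. After quantile normalization the split was 4 higher and 3 lower, where 46.4% of all tested genes were higher and 44.4% lower. The values of 4 of the 7 (57.1%) were listed at 0 in all control libraries, where 33.8% of all tested genes were. These 4 had to be called higher once they passed the filter, and the 3 tested genes above 0 in control were 2 higher and 1 lower. IRS1, IGF2 and IGFBP3 did not pass the filter and have values but no test.

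**Figure D1:**
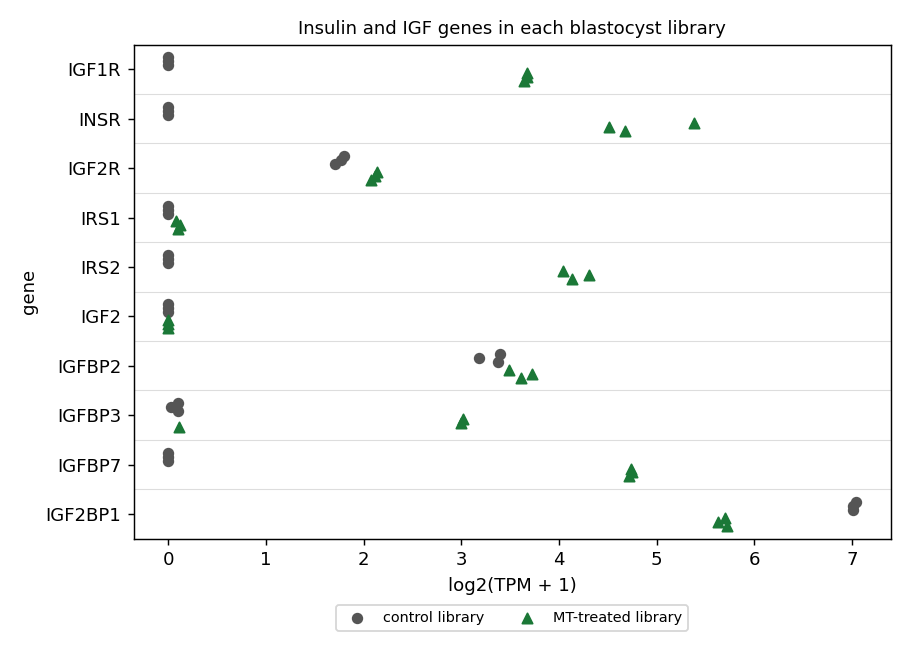
The plot of the 10 insulin and IGF genes by library gives log2(TPM + 1) on the horizontal axis, with 1 point for each of the 3 control libraries (circles) and 3 MT-treated libraries (triangles). IGF1R, INSR, IRS2 and IGFBP7 sit at 0 in control and between 11.51 and 40.67 TPM in MT-treated libraries, IGF2BP1 is the only tested gene with control above MT-treated, and 1 of the 3 MT-treated points of IGFBP3 lies with the controls.

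IGF1R (ENSBTAG00000021527), the receptor kinase for IGF1 and IGF2, was listed at 0 in each control library. The MT-treated libraries had 11.51, 11.76 and 11.74 TPM. The 3 MT-treated values lay within a coefficient of variation (CV) of 1.19%, tighter than most genes of that level. Of the 5175 tested genes that averaged 10 to 50 TPM in this group, 95.1% had a larger CV, and the median CV was 5.15%.

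INSR (ENSBTAG00000012687), the insulin receptor, was likewise at 0 in each control library. Its MT-treated values were 24.63, 21.77 and 40.67 TPM. MT-treated replicate 3 stood above the other 2, and the CV of 35.1% was exceeded by 3.0% of tested genes at 10 to 50 TPM. INSR was thus both the highest of the receptors and the one with the widest spread. On the log2(TPM + 1) scale IGF1R was below INSR by 1.04, 0.84 and 1.71 in the 3 MT-treated libraries.

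IGF2R (ENSBTAG00000002402), the cation-independent mannose 6-phosphate receptor that clears IGF2, was the only receptor of the 3 with values above 0 in both groups. Control libraries had 2.27, 2.41 and 2.49 TPM, and MT-treated libraries had 3.21, 3.33 and 3.39 TPM. The groups did not overlap, and the mean rose from 2.39 ± 0.111 to 3.31 ± 0.0917 TPM (SD, n = 3 libraries each). The log2 difference was 0.35 with a standard error of 0.04 (adjusted p = 0.00017 by limma). It was 0.83 after each library was centred on the median of the 5988 genes with at least 1 TPM in all libraries, and it turned to -1.74 after quantile normalization. The direction of IGF2R therefore depends on the scaling.

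The receptor substrates had unequal levels. IRS2 (ENSBTAG00000012019), which couples the insulin and IGF1 receptors to PI3-kinase, was at 0 in each control library, whereas the MT-treated libraries had 16.53, 18.81 and 15.49 TPM. Its paralog IRS1 (ENSBTAG00000021308) was at 0 in each control library and at 0.07, 0.09 and 0.06 TPM in the MT-treated libraries. IRS2 was thus the substrate with nearly all the signal, and IRS1 stayed close to the smallest value above 0 that the table can hold, 0.01 TPM.

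The ligand IGF2 (ENSBTAG00000013066), a growth factor from an imprinted gene, was listed at 0 in all 6 libraries. IGF1 and INS, the genes of the other main ligands, were also at 0 in all 6, as were INSL3, INSL5, INSL6 and RLN3 of the relaxin branch of the insulin superfamily. No ligand of the list had a value above 0 in any library, so no difference between the groups could be measured for the ligands. Without counts, no upper limit can be put on these values.

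Among the binding proteins, IGFBP2 (ENSBTAG00000005596), a secreted carrier with a preference for IGF2, had 9.38, 8.08 and 9.54 TPM in control and 11.2, 12.24 and 10.2 TPM in MT-treated libraries. The lowest MT-treated library was above the highest control library. The mean was 9.0 ± 0.80 TPM in control and 11.21 ± 1.02 TPM in MT-treated blastocysts (SD, n = 3 each), a log2 difference of 0.29 with a standard error of 0.09 (adjusted p = 0.017 by limma). This was the smallest difference among the 7 tested genes. Without MT-treated replicate 1 the adjusted p was 0.0547 and without MT-treated replicate 2 it was 0.0564 (limma), and quantile normalization turned the difference to -1.64.

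IGFBP7 (ENSBTAG00000019368), a binding protein-related factor with low affinity for IGFs, was at 0 in each control library. Its MT-treated values were 25.2, 25.82 and 25.59 TPM, with a CV of 1.23%. IGFBP7 and IGF1R had the tightest MT-treated values of the 5 insulin and IGF genes that averaged 10 to 50 TPM there.

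IGFBP3 (ENSBTAG00000003994), the main carrier of IGFs in serum, split the MT-treated libraries. Control libraries had 0.07, 0.02 and 0.07 TPM, and MT-treated libraries had 0.08, 6.98 and 7.12 TPM. MT-treated replicate 1 was at the control level and the other two were not, so the gene had only 2 libraries at 1 TPM or more and was not tested. With no filter it was not called (adjusted p = 0.0727 by limma). This kind of split was rare, since 9 genes were under 1 TPM in MT-treated replicate 1 and at 5 TPM or more in both other MT-treated libraries. The corresponding counts were 11 and 14 genes for MT-treated replicates 2 and 3, and 5, 4 and 1 genes for the control replicates.

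IGF2BP1 (ENSBTAG00000011736), a protein that binds IGF2 mRNA and other transcripts, was the most abundant of the 10 transcripts in every library and the only one that fell. Control libraries had 127.41, 127.35 and 130.64 TPM, and MT-treated libraries had 51.62, 48.57 and 50.79 TPM. The groups were far apart relative to their spread, with means of 128.5 ± 1.88 and 50.3 ± 1.58 TPM (SD, n = 3 each). The log2 difference was -1.33 with a standard error of 0.03 (adjusted p = 3.24e-08 by limma), and it was -0.86 after median centring and -1.04 after quantile normalization. Its target IGF2 was at 0 in the same libraries. IGF2BP3 fell with it, from 66.5 ± 1.6 to 30.6 ± 0.758 TPM (log2 difference -1.09, adjusted p = 1.06e-07 by limma), also under both other scalings. IGF2BP2, the most abundant of the family, had 377 to 382 TPM in control and 328 to 350 TPM in MT-treated libraries, a log2 difference of -0.17 that became 0.31 after median centring and -0.03, not called, after quantile normalization. The 3 IGF2BP transcripts together made up 573 to 575 TPM in control and 409 to 430 TPM in MT-treated libraries.

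In MT-treated blastocysts the order of levels was IGF2BP1, INSR, IGFBP7, IRS2, IGF1R, IGFBP2, IGFBP3, IGF2R and IRS1, with IGF2 at 0. Neighbours whose ranges overlapped were INSR and IGFBP7, IGF1R and IGFBP2, and IGFBP3 and IGF2R. In control blastocysts 4 of the 10 genes were above 0, with IGF2BP1 first, then IGFBP2, then IGF2R and IGFBP3 last. Each MT-treated library had 9 of the 10 above 0. The summed TPM of the 10 genes was 138 to 143 in control and 144 to 165 in MT-treated libraries, and without IGF2BP1 it was 10.5 to 12.1 and 92.4 to 114.3.

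The share of genes at 0 in control depended on the level of a gene. It was 54.0% for tested genes that averaged 1 to 3 TPM in MT-treated blastocysts, 51.5% at 3 to 10 TPM, 41.5% at 10 to 30 TPM, 18.4% at 30 to 100 TPM and 1.8% at 100 to 300 TPM. IGF1R, INSR, IRS2 and IGFBP7 all fell in the class of 10 to 30 TPM, in which 1612 of 3889 genes were at 0 in all control libraries. IGFBP2 was in the same class with control values above 0, and IGF2R was above 0 in control in the lower class of 3 to 10 TPM. Hypoblast markers moved in the same direction as the 4 genes, and 3 of the 7, PDGFRA, FGFR2 and RSPO3, were at 0 in all control libraries and over 1 TPM in each MT-treated library. Their part in the result was not tested.

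**Figure D2:**
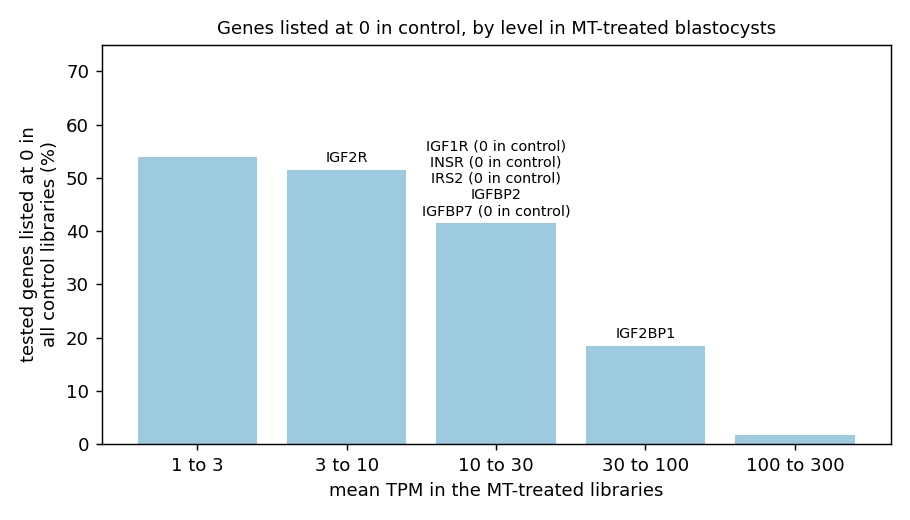
Bars give the percentage of tested genes listed at 0 in all 3 control libraries, by class of mean TPM in the 3 MT-treated libraries on the horizontal axis, and the names above a bar are the tested insulin and IGF genes of that class. The share runs from 54.0% at 1 to 3 TPM to 1.8% at 100 to 300 TPM, and the 4 insulin and IGF genes at 0 in control lie in the class with 41.5%.

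In all, 6 ratios between related genes were computed within libraries on the log2(TPM + 1) scale, and 5 of them hold at least 1 gene at 0 in every control library, so they are given for MT-treated libraries alone, with no comparison. There INSR exceeded IGF2R by 2.61, 2.40 and 3.25 and IGF1R exceeded it by 1.57, 1.56 and 1.54. IRS1 was below IRS2 by 4.03, 4.18 and 3.96, and IGFBP2 was below IGFBP7 by 1.10, 1.02 and 1.25. The ratio of IGFBP2 to IGFBP3 was above 0 in all 6 libraries, with 3.28, 3.15 and 3.30 in control and 3.50, 0.73 and 0.46 in MT-treated libraries. The MT-treated values lay on both sides of the control values (exact two-sided permutation test, p = 0.4, where 0.1 is the smallest p that 3 against 3 libraries allows).

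Other genes act on the availability of IGF or insulin outside the cell. Of 20 further ligands, binding proteins and processing enzymes, 10 were at 0 in all 6 libraries and 8 were tested. Of these, 5 (62.5%) were called higher, 2 of them from 0 in all control libraries, and 3 (37.5%) lower, close to the 61.6% and 34.1% of all tested genes. After quantile normalization 2 were higher and 6 lower, beside 46.4% and 44.4% of all tested genes. Their median log2 difference was 0.60. PAPPA, the protease that cleaves IGF-bound IGFBP4 and releases IGF, fell most. It had 79.4, 75.8 and 78.94 TPM in control and 1.06, 2.73 and 0.76 TPM in MT-treated libraries, a control mean 51.5 times the MT-treated mean (log2 difference -5.05, adjusted p = 3.57e-06 by limma). STC1, a stanniocalcin of a family that inhibits PAPPA, had 0.18, 0.16 and 0.18 TPM in control and 9.28, 9.15 and 8.67 TPM in MT-treated libraries. It passed the filter through the MT-treated group alone, and its log2 difference of 3.10 turned to -0.23 after quantile normalization. IGFBP4 itself was at 0 in control and at 0.59, 0.51 and 0.76 TPM in MT-treated libraries, under the filter.

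IGFBP5, which neighbours IGFBP2 in the RefSeq annotation of the ARS-UCD2.0 assembly, had 14.46, 13.19 and 15.09 TPM in control and 7.58, 8.59 and 7.74 TPM in MT-treated libraries. It fell under each scaling (log2 difference -0.77, adjusted p = 4.12e-05 by limma). IGFBP1, next to IGFBP3, was at 0 in all 6 libraries, as was INS next to IGF2. IGFBP6, a carrier with a preference for IGF2, had means of 16.1 and 18.7 TPM and a log2 difference of 0.21 (adjusted p = 0.0492 by limma), which became -0.23 after quantile normalization and was not called with a pseudocount of 0.1 (adjusted p = 0.054) or with no filter (adjusted p = 0.0636). IDE, the enzyme that degrades insulin, fell from 48.5 ± 0.847 to 14.9 ± 0.452 TPM, a log2 difference of -1.64. HTRA1, a serine protease that cuts IGF binding proteins, was at 0 in control and at 10.68, 11.19 and 9.89 TPM in MT-treated libraries, and the convertase PCSK6 was at 0 in control and at 5.54, 8.04 and 5.04 TPM. The convertase FURIN, which cleaves the receptor precursors, had means of 2.92 and 6.76 TPM, a log2 difference of 0.98 that turned to -1.44 after quantile normalization.

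**Figure D3:**
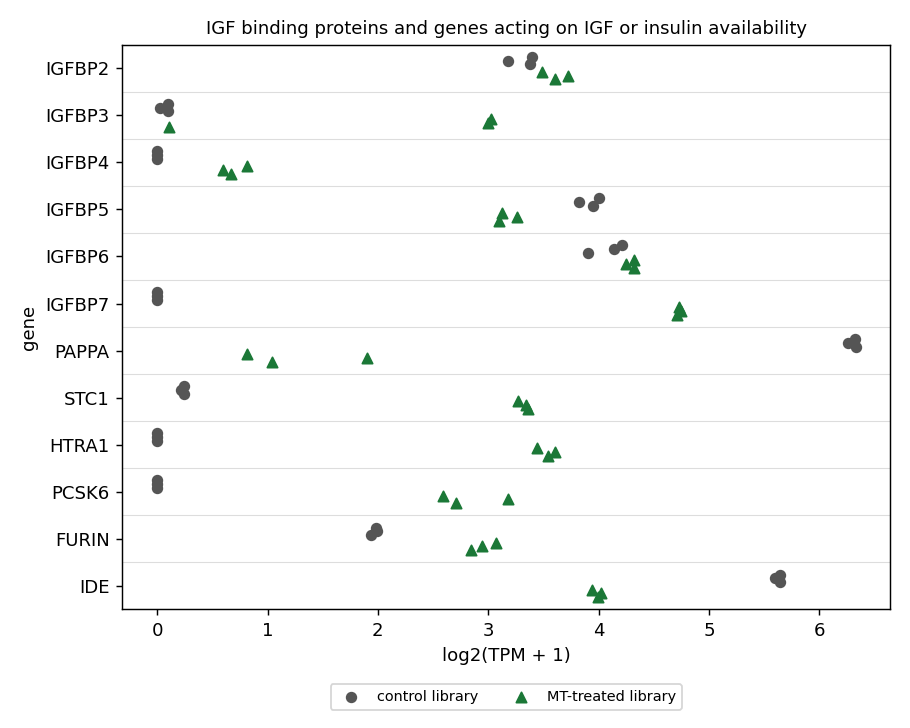
The plot of IGF binding proteins and of genes acting on IGF or insulin availability gives log2(TPM + 1) for each control library (circles) and MT-treated library (triangles). PAPPA, IDE and IGFBP5 lie lower in the MT-treated libraries, while IGFBP7, HTRA1 and PCSK6 are at 0 in control and above 0 in all MT-treated libraries.

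**Figure D4:**
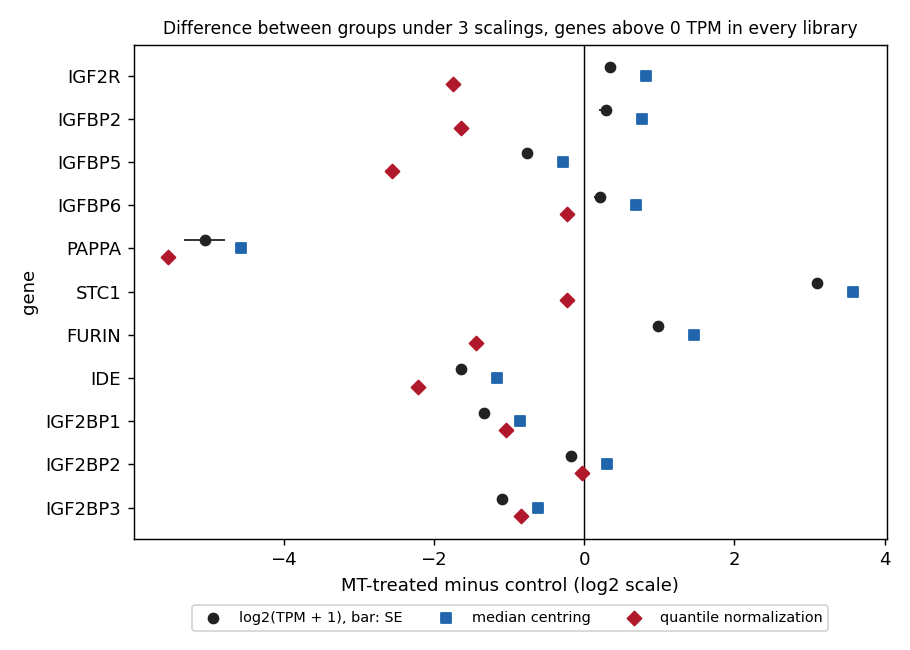
For 11 genes above 0 TPM in every library, the horizontal axis gives the difference of MT-treated minus control on the log2 scale, as fitted on log2(TPM + 1) with its standard error (black), after median centring (blue) and after quantile normalization (red). IGF2R, IGFBP2, IGFBP6, STC1 and FURIN change sign after quantile normalization and IGF2BP2 after median centring, while PAPPA, IDE, IGFBP5, IGF2BP1 and IGF2BP3 stay below 0.

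At the receptor, 25 of 37 rows of adaptors, phosphatases and inhibitors were tested. Of these, 12 (48.0%) were called higher and 12 (48.0%) lower, beside 61.6% and 34.1% of all tested genes. The median log2 difference was -0.18, beside 1.12 over all tested genes. After median centring 14 were higher and 9 lower, beside 70.4% and 25.4% of all tested genes. After quantile normalization 10 were higher and 13 lower, beside 46.4% and 44.4%. At 0 in all control libraries were 6 of the 12 genes called higher. PTPN1, PTPRF, ENPP1 and NCK1, also called higher, had every control library under 1 TPM and passed the filter through the MT-treated group alone. RACK1 and an identifier of CRKL were the higher genes that reached 1 TPM in control. Adaptors were found on both sides. DOK5, an adaptor of the insulin receptor, was at 0 in control and at 20.94, 22.84 and 21.05 TPM in MT-treated libraries, and the ubiquitin ligase CBL was at 0 and at 12.58, 11.7 and 12.55 TPM. NCK1, an SH2 adaptor that binds IRS proteins, had 0.03, 0 and 0 TPM in control and 13.13, 11.36 and 11.17 TPM in MT-treated libraries. GRB7, an adaptor of the GRB10 family, fell from 22.95 to 1.19 TPM on average, GAB1, a docking protein, from 67.0 to 19.3 TPM, and the cytokine and growth hormone inhibitor SOCS2 from 6.15 to 0.35 TPM (log2 differences of -3.45, -1.75 and -2.40). SOCS2 passed the filter through the control group alone, and the falls of GRB7 and GAB1 held under both other scalings. CRKL had 2 identifiers in the table that were called in opposite directions, so it has no single direction.

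Downstream of the receptors, 22 of 29 genes of PI3-kinase, AKT and FOXO signaling were tested, and 14 were called higher and 6 lower. The shares of 63.6% and 27.3% stood beside 61.6% and 34.1% of all tested genes. The median log2 difference was 1.17, beside 1.12 over all tested genes. After quantile normalization 11 were higher and 11 lower, beside 46.4% and 44.4% of all tested genes. Of the 14 genes called higher, 8 were at 0 in all control libraries, and PHLPP1 also passed the filter through the MT-treated group alone. The catalytic subunits PIK3CA and PIK3CB fell, PIK3CB from 172.9 ± 5.46 to 41.4 ± 1.36 TPM and PIK3CA from 25.6 ± 0.458 to 6.37 ± 0.168 TPM, whereas the regulatory subunit PIK3R1 was at 0 in control and at 3.99, 4.65 and 4.26 TPM in MT-treated libraries. PIK3CA and PIK3R1 were chosen for mention after their values were seen. The kinase AKT1 fell from 29.8 to 16.2 TPM on average. MDM2, a ubiquitin ligase phosphorylated by AKT, was at 0 in control and at 35.75, 32.86 and 35.18 TPM in MT-treated libraries. The AKT phosphatases PHLPP1 and PHLPP2 moved in opposite directions, PHLPP1 from 0, 0.01 and 0 TPM to 16.54, 14.72 and 18.47 TPM and PHLPP2 from 28.7 to 5.30 TPM on average. INPP5K, an inositol phosphatase, fell from 21.35 to 3.52 TPM. FOXO1 was at 0 in all 6 libraries and FOXO3 was not called (adjusted p = 0.0581 by limma), but was called higher after median centring (0.74) and lower after quantile normalization (-1.78).

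Of 14 genes in the list of the IGF2BP family and of factors that act on IGF2 mRNA or its regulation, 13 were tested, with 7 (53.8%) higher and 6 (46.2%) lower, beside 61.6% and 34.1% of all tested genes. After quantile normalization 5 were higher and 6 lower, beside 46.4% and 44.4%. After median centring the split was 9 and 3, where 70.4% of all tested genes were higher and 25.4% lower. LIN28A, an RNA-binding protein that promotes IGF2 translation in muscle cells, was at 0 in control and at 14.93, 15.15 and 15.06 TPM in MT-treated libraries. DICER1, the nuclease that processes microRNA precursors, had 0.03 TPM in each control library and 9.29, 9.04 and 9.19 TPM in MT-treated libraries, and PLAG1, an activator of IGF2 transcription, had 0, 0 and 0.03 TPM against 3.45, 3.67 and 3.77 TPM. Both passed the filter through the MT-treated group alone. After quantile normalization DICER1 had a difference of -0.06 and PLAG1 of -0.21. SYNCRIP, an RNA-binding partner of IGF2BP1, fell from 155.9 to 56.0 TPM and MYCN, a transcription factor, from 28.1 to 15.8 TPM.

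Of 11 tested imprinted genes other than IGF2 and IGF2R, 9 (81.8%) were called higher and none lower by limma, beside 61.6% and 34.1% of all tested genes. At 0 in all control libraries were 5 of the 11 (45.5%), beside 33.8% of all tested genes. CDKN1C, also called higher, had at most 0.04 TPM in control and passed the filter through the MT-treated group alone. After quantile normalization 6 were higher and 2 lower, beside 46.4% and 44.4% of all tested genes. KCNQ1, which lies in the imprinted domain beside that of IGF2, was at 0 in control and at 33.56, 31.67 and 32.11 TPM in MT-treated libraries. SNRPN, a spliceosomal protein gene, rose from 4.16 ± 0.272 to 128.2 ± 4.68 TPM, a log2 difference of 4.65. PHLDA2, a growth-restraining placental gene, was at 0 in control and at 17.16, 20.99 and 16.32 TPM. PEG3 and GNAS were not called, with adjusted p-values of 0.828 and 0.707 by limma, but both were called higher after median centring (0.47 each), and after quantile normalization PEG3 was called lower (-1.90) and GNAS higher (0.24). The second GNAS identifier was at 0 in all 6 libraries.

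Glucose transporters, whose surface supply insulin can raise in other tissues, were the last group. Of 10 rows, 6 were tested, with 4 (66.7%) higher and 2 (33.3%) lower, beside 61.6% and 34.1% of all tested genes. At 0 in all control libraries were 3 of the 4, which had to be higher, and SLC2A5, a fructose transporter, was the only other one. SLC2A1 and SLC2A3, the transporters with the highest control levels, fell from 191.1 ± 2.39 to 112.9 ± 2.42 TPM and from 255.3 ± 1.32 to 167.9 ± 1.94 TPM. SLC2A8, a transporter that moves to the blastocyst surface under insulin in mice, was at 0 in control and at 39.99, 38.71 and 40.82 TPM in MT-treated libraries. SLC2A12 and SLC2A13 were also at 0 in control, with 16.95 to 21.14 and 29.83 to 33.4 TPM in MT-treated libraries. SLC2A4, the transporter that insulin mobilizes in muscle and fat, was at 0 in all 6 libraries. Over the 6 lists together, 51 of 85 tested genes (60.0%) were higher, 25 of them from 0 in all control libraries, and 29 (34.1%) lower, beside 61.6% and 34.1% of all tested genes. The counts were 59 and 23 after median centring, where 70.4% of all tested genes were higher and 25.4% lower. After quantile normalization they were 38 and 40, where 46.4% of all tested genes were higher and 44.4% lower.

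**Figure D5:**
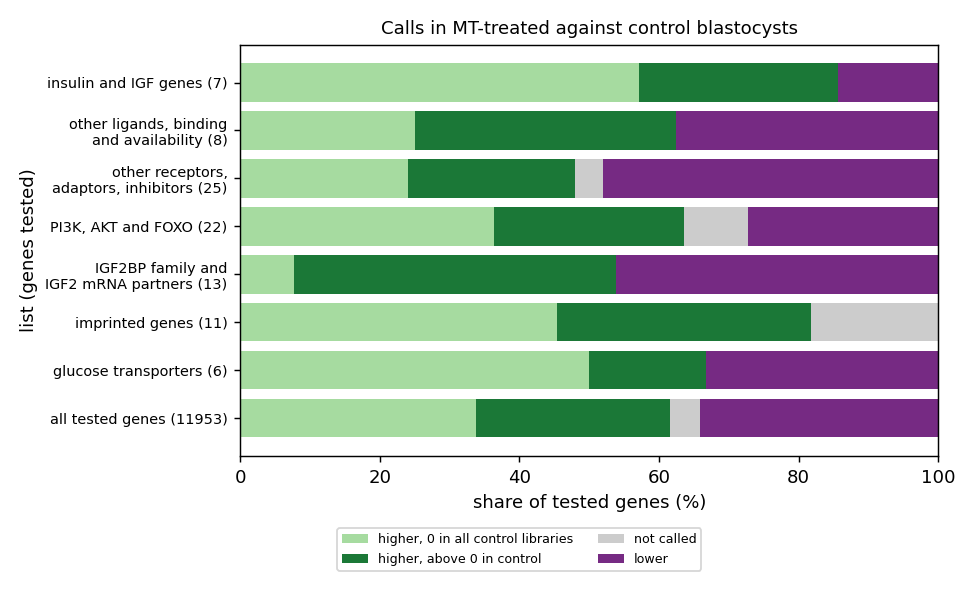
Each bar gives the share of tested genes in percent that were called higher in MT-treated blastocysts from 0 in all control libraries (light green), higher from values above 0 in control (dark green), not called (grey) or lower (purple), with the number of tested genes in parentheses. The 7 tested insulin and IGF genes have 57.1% in the light green class against 33.8% of all 11953 tested genes, and the bar of the PI3K, AKT and FOXO list is close to that of all tested genes.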

How the data were processed

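RNA-seq was measured in 3 control and 3 MT-treated libraries, grouped by the sample titles. Per the submitters' processing notes and the methods, reads were filtered with fastp, checked with FastQC 0.11.9, aligned with STAR 2.7.9a and counted with featureCounts (Subread 1.6.3). The methods name the build ARS-UCD1.3 and the notes ARS-UCD1.2. The methods name Smart-seq2 and the labels TruSeq. The authors deposited TPM per gene, rounded to 2 decimals. How counts became TPM, and whether counting used strand, is not given in the sources used here.

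log2(TPM + 1) of 11953 genes with at least 1 TPM in at least 3 libraries was modelled in limma 3.58.1 under R 4.3.3 (lmFit, then eBayes with trend), with Benjamini-Hochberg adjustment over all of them. The fit was also run on simulated data in which few genes were changed. Most genes were called in the real data, so that run does not bear on the calls here. The ratio of IGFBP2 to IGFBP3 was compared with an exact permutation test. Tables and figures were made with Python 3.11.15, pandas 2.3.3, numpy 2.4.6 and matplotlib 3.10.9.

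The 10 genes, the 6 lists and the 5 marker lists were chosen with earlier results of these data known, the lists from general knowledge. All 10 genes are described. From each list, up to 3 rises and 3 falls with the largest change among called genes whose groups did not overlap are named, except that an item that meets this rule is not reported here, and other genes of the lists were named after their values were seen. Counts of genes above 0 in all libraries were added after the data were seen. The paper states that each production run held all treatments at the same time. Replicate numbers are not said to mark a production run, so libraries were treated as unpaired.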

Additional observations from a re-analysis of the deposited data

How the results depend on the processing

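The 10 genes and the lists were refitted with a pseudocount of 0.1, no filter, a minimum of 5 TPM, quantile normalization, median centring, no intensity trend, a replicate block and each library left out. Genes above 0 in all 6 libraries were added as a setting after the data were seen. The values recomputed are the list counts, the differences of the 7 tested genes of the 10 and the ratios. Of these values, 315 kept their direction and call or moved little, 22 moved, 2 lost the call (both IGFBP2, without an MT-treated library) and 2 reversed. The 315 include 13 refits each of IGF1R, INSR, IRS2 and IGFBP7, which had to be higher from 0 in control. Refits of ratios that hold such a gene are also among the 315, so part of this stability was fixed in advance. Quantile normalization reversed IGF2R (-1.74) and IGFBP2 (-1.64), which brought the lower genes among the 10 to 3, gave 2 higher and 6 lower availability genes, 11 lower PI3K, AKT and FOXO genes and 2 lower imprinted genes. It forces all libraries to one distribution although the control libraries hold more genes at 0. It brought the median difference of all tested genes from 1.12 to 0.04, with 46.4% of them higher and 44.4% lower. Median centring removed a shift of -0.48 and left 3 lower genes in the IGF2BP list, where 25.4% of all tested genes were lower. With genes above 0 in all libraries, fewer genes could be tested, and the higher genes were 2 of the 10, 3 in availability, 5 at the receptor, 5 in PI3K, AKT and FOXO, 3 imprinted and 1 glucose transporter. In that setting 12 receptor-level and 6 PI3K, AKT and FOXO genes were lower, and 40.6% of all tested genes were higher and 52.4% lower. A minimum of 5 TPM left 9 higher and 6 lower PI3K, AKT and FOXO genes, where 57.5% of all tested genes were higher and 38.1% lower. Leaving out each library gave 5 to 6 higher genes among the 10. With the replicate block, 6 of the 10 were higher and 1 lower, and all genes gave 7379 higher and 4082 lower against 7367 and 4071. The availability list had 4 higher genes in place of 5 with the block and with no intensity trend. It also had 4 without any of the MT-treated libraries and without control replicate 2. In these settings 61.3% to 61.7% of all tested genes were higher. Deviations of same-numbered libraries correlated at -0.01, -0.00068 and 0.06, which cannot show whether those libraries shared a production run. TPM holds no counts and the depth listed by the paper was not used here, so no limit set by depth is stated.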
